A study of Mus musculus with 8 samples.

Results

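The genes described here are 10 members of the interleukin-6 (IL-6) cytokine system, of 20681 genes in the deposited table. They were chosen by name, with earlier results of these data known. They comprise the ligand genes Il6, Il11, Lif and Clcf1, the receptor genes Il6ra, Il11ra1, Lifr, Osmr and Il6st, and Socs3, the gene of a feedback inhibitor. All 10 were found, each in a single row. RNA was measured by poly-A sequencing in 8 mouse knee joint samples, 4 labelled control and 4 labelled knockout. Per the series' design text, all the samples came from Acan-Cre;Loxl2 fl/fl mice, so the controls carried the floxed Loxl2 alleles and the Cre recombinase too. That Cre is driven by Acan, the aggrecan gene of cartilage cells, while the RNA came from the whole joint. The control samples were vehicle-treated, and the agent given to the other group is not named there, nor are the animals' ages or their number per library. Every library name carries DMM, an abbreviation in common use for surgical destabilisation of the meniscus, a model of joint injury. The names also read LOXL2wt for the controls and LOXL2ko for the other group. How wt in the control names fits with the floxed genotype of the design text is not explained there.

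Cytokines of this family share a signalling receptor chain, gp130, encoded by Il6st. Interleukin-6 and interleukin-11 first bind their own receptors (Il6ra and Il11ra1), leukaemia inhibitory factor (Lif) binds Lifr, and oncostatin M (Osm) acts in mice mainly through Osmr. Each complex includes gp130 and activates Janus kinases (JAKs) and the transcription factor STAT3, and STAT3 induces Socs3, whose product binds gp130 and shuts the signal down. In joints these cytokines are known for their part in synovial inflammation, cartilage matrix breakdown and bone remodelling.

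The libraries held 13991000 to 17411617 reads assigned to genes. The targeted gene, Loxl2, went against the labels. The control libraries had normalised read counts of 282, 349, 1135 and 311 by replicate number, and the libraries labelled knockout had 893, 1468, 960 and 1518. The log2 difference was 1.44 ± 0.40 (SE, limma adjusted p = 0.0294), a call that 8 of 18 alternative settings did not keep, with adjusted p from 0.00188 to 0.0849 over them. The groups are therefore called by their labels. The samples are whole joints, and genes of muscle, cartilage, bone, fibroblasts and blood cells were all read in them. Where RNA of a cell type is lower in such bulk samples, fewer cells and less RNA per cell cannot be told apart.

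Promoter sequence is shown for Socs3 and Lif, which were higher in the libraries labelled knockout. Among the 9 members with a sequence to search, Socs3 alone held the STAT motif searched for, and Lif held an AP-1 motif. Clcf1 had no such sequence and was not searched. The sequences are from RefSeq on GRCm38.p6, the same build as mm10, and read 5′ to 3′ on the gene's strand towards its start site, up to the nearest annotated exon. Capitals mark TTCNNNGAA, the STAT motif, in Socs3 (chr11:117969452-117969616, minus strand) and TGANTCA, the AP-1 motif, in Lif (chr11:4257318-4257556, plus strand).
Socs3: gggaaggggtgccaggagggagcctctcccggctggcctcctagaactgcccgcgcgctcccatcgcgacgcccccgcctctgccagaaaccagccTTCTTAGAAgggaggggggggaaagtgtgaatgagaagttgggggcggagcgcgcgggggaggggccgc
Lif: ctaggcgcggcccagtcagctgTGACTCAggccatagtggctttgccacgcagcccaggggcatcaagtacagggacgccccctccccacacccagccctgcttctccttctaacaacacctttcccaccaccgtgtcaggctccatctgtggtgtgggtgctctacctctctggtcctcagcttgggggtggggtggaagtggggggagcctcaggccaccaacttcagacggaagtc
The Socs3 match begins 154 bases before the start site and the Lif match 228 bases before it. Both motifs read the same on either strand, and the patterns do not share a match here. Windows of 250 bases before the start were in the reference table for 9 of the 10 members, Clcf1 being the exception. In them the STAT motif was in 1 member (Socs3) and the AP-1 motif in 3 (Lif, Il6 and Il11). Osmr, which was also called higher, held neither motif, and Il6 and Il11 were too low to test. Of all 27025 genes with such a window, 8.13% held the STAT motif in at least 1 window and 7.82% the AP-1 motif. A match describes letters only.

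Of the 10 members, 8 were abundant enough to test, with a normalised read count of at least 10 in at least 4 libraries. Lif, Clcf1, Osmr and Socs3 rose in the libraries labelled knockout, by 1.80-fold to 4.13-fold, and no member was called lower. By edgeR and DESeq2 0 members were lower too, and at an unadjusted p under 0.05 limma had 6 higher and 0 lower. The share of all genes under that unadjusted threshold is not given here, so the 6 have nothing to be read against. Over the whole table limma called 23.2% of 14949 genes tested at an adjusted p under 0.05, 11.6% as higher and 11.6% as lower. The 8 members tested are too few for 0 called lower to set them apart from the share called lower. The median log2 difference of the 8 members tested was 0.68, against 0.00 over all genes tested. Since the members were chosen with earlier results known, these shares and medians are description and no test. The shared chain Il6st and the receptor Lifr had differences near 0, and Il6 itself was close to absent.

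**Figure D1:**
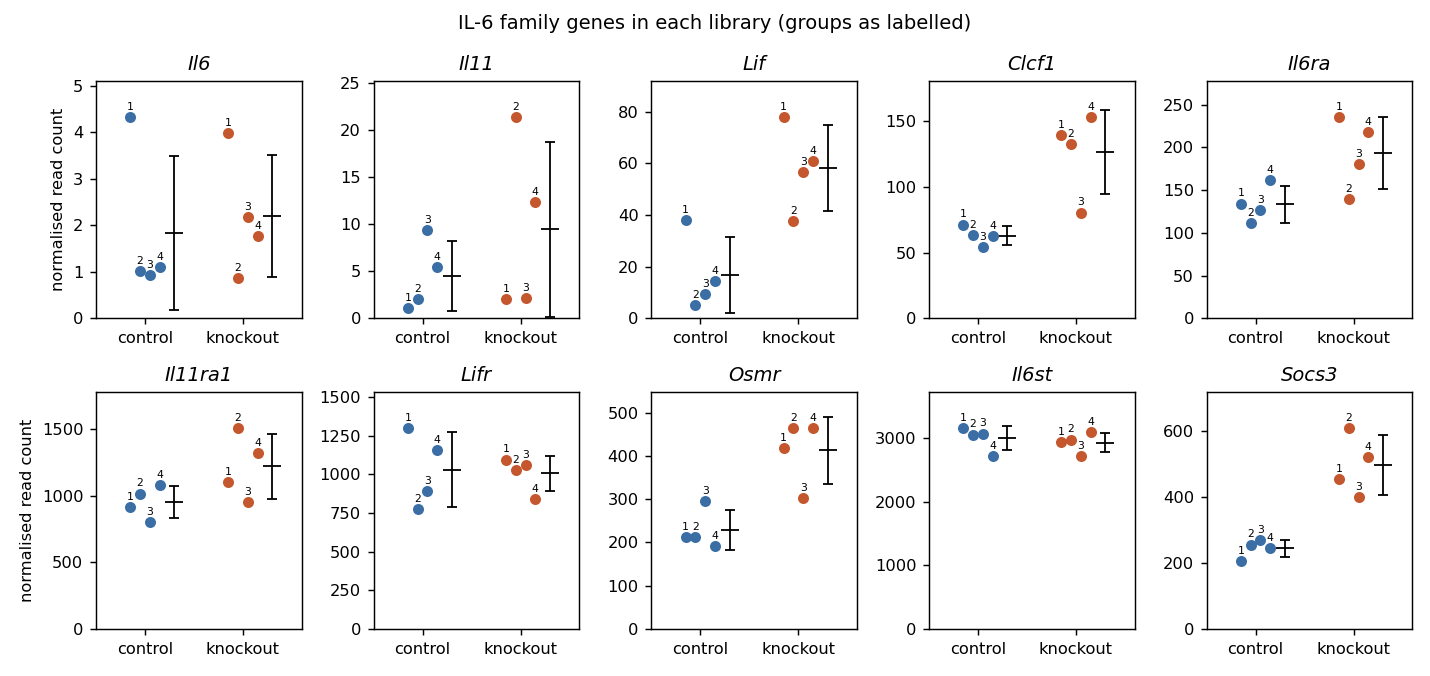
Normalised read count (vertical axis, from 0 in each panel) of the 10 genes in each library, with replicate numbers beside the points and the mean and SD of 4 libraries at the right of each group. Points for Clcf1, Osmr and Socs3 do not overlap between the groups, those for Lif nearly so, and Il6 stays at 1 to 4 reads per library.

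Among the ligands, Lif rose most. Lif encodes leukaemia inhibitory factor, a cytokine made by stromal cells and acting on bone, cartilage and nerve. Normalised read counts in the control libraries, by replicate number as throughout, were 37.9, 5.05, 9.35 and 14.2. Those labelled knockout had 77.8, 37.6, 56.6 and 60.7. Control replicate 1 lay just above knockout replicate 2, and all other control libraries lay below every library labelled knockout. The means were 16.6 ± 14.6 and 58.2 ± 16.5 (SD, n = 4 each), and the log2 difference was 2.05 ± 0.51 (SE, limma adjusted p = 0.0206). These are few reads, 63 over the control libraries and 243 over the others, and the call was lost without knockout replicate 1 (adjusted p = 0.0545) or 4 (0.0588). Lif lies on chromosome 11 from 4257557 to 4272514 in mm10, next to Osm, with 16530 bases and no annotated gene between them.

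Clcf1 encodes cardiotrophin-like cytokine factor 1, which signals through the ciliary neurotrophic factor receptor complex. It was read at 71.4, 63.6, 54.2 and 62.4 in the control libraries and at 139.6, 132.6, 80.5 and 153.2 in the libraries labelled knockout. The groups did not overlap, and knockout replicate 3 was the nearest to the controls. The mean went from 62.9 ± 7.03 to 126.5 ± 31.8 (SD, n = 4 each), a log2 difference of 0.96 ± 0.22 (SE, limma adjusted p = 0.0144). Clcf1 (chromosome 19, 4214238 to 4223490) shares exon bases with AC109138.7 on the same strand.

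Il6, the gene of interleukin-6 (chromosome 5, 30013114 to 30019981), was barely detected. It had 4, 1, 1 and 1 reads in the control libraries and 4, 1, 2 and 2 in the libraries labelled knockout. A difference was not detectable at this depth. Il11, the gene of interleukin-11, a cytokine of stromal and bone cells (chromosome 7, 4772373 to 4782859), had 1, 2, 10 and 5 reads in the control libraries and 2, 25, 2 and 14 in those labelled knockout. Knockout replicates 2 and 4 lay above every control, replicates 1 and 3 within the control range. Neither gene passed the filter on low values, and with no filter their limma adjusted p was 0.830 and 0.599. Osm, the gene of the ligand of Osmr, was also below the filter, with 17 reads over the control libraries and 41 over the others (limma adjusted p = 0.164 with no filter).

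Of the receptor genes, Osmr alone was called. Osmr encodes the oncostatin M receptor chain (chromosome 15, 6813577 to 6874969). The control libraries were read at 213, 212, 296 and 192 and the libraries labelled knockout at 419, 464, 302 and 465. The groups did not overlap, with control replicate 3 and knockout replicate 3 closest to each other. The mean rose from 228 ± 46.4 to 413 ± 76.6 (SD, n = 4 each), a log2 difference of 0.85 ± 0.18 (SE, limma adjusted p = 0.0109), and the call held under all 18 alternative settings.

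Lifr, the receptor chain for leukaemia inhibitory factor, lies 215644 bases from Osmr on chromosome 15 (7090614 to 7197489), with no protein-coding gene between them. It was read at 1300.1, 774, 890 and 1156 in the control libraries and at 1095, 1027, 1060 and 841 in those labelled knockout. The knockout values lay within the control range. The log2 difference was -0.01, with a 95% interval of -0.37 to 0.35 (limma adjusted p = 0.966), so a rise as large as that measured for Osmr lies outside the interval.

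Il6st, the shared gp130 chain (chromosome 13, 112464070 to 112510086), had 3158, 3053, 3068 and 2718 normalised reads in the control libraries and 2933, 2974, 2718 and 3091 in those labelled knockout. The groups covered nearly the same range. Its log2 difference was -0.03, and its 95% interval of -0.21 to 0.15 was the narrowest among the members tested (limma adjusted p = 0.789). The sign of the Lifr and Il6st differences changed with the scaling of the libraries. When the libraries were rescaled without muscle, erythroid and neutrophil markers and the 50 most abundant genes, they were 0.14 and 0.12, close to the median of 0.15 that all genes took under that scaling.

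Il6ra encodes the interleukin-6 receptor (chromosome 3, 89864059 to 89913196). It was read at 134, 111, 126 and 162 in the control libraries and 235, 139, 181 and 218 in those labelled knockout, where only replicate 2 lay within the control range. The log2 difference of 0.52 (95% interval 0.10 to 0.94) was not called (limma adjusted p = 0.0723). Il11ra1, the interleukin-11 receptor gene (chromosome 4, 41699989 to 41769474), was read at 917, 1015, 799 and 1080.0 in the control libraries and 1104, 1510, 949 and 1321 in those labelled knockout, with replicate 3 inside the control range. Its log2 difference was 0.34 (95% interval 0.01 to 0.68, limma adjusted p = 0.122). Both were called under the rescaling without abundant genes (limma adjusted p = 0.0340 and 0.0387), which gave 6 called members of the 8 tested. That rescaling called 18.2% of all genes as higher and 5.2% as lower, 2720 against 777. Il6ra was also called by DESeq2 (adjusted p = 0.0409), which called 14.3% of all genes as higher, and without knockout replicate 2 (limma adjusted p = 0.0341), and Il11ra1 without knockout replicate 3 (limma adjusted p = 0.0397). Gm42809 lies opposite Il6ra and shares exon bases with it. The annotated span of Il11ra1 holds 6 other genes, of which Ccl27a, opposite it, shares exon bases. The near copy Il11ra2, in 2 rows of the table, reached at most 33.9 normalised reads.

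Socs3, the feedback inhibitor whose promoter motif is shown above, had the smallest adjusted p of the members. The control libraries had 207, 255, 268 and 244 normalised reads, and the libraries labelled knockout had 455, 609, 399 and 520. Every library labelled knockout lay above every control library. The mean rose from 244 ± 26.6 to 496 ± 90.2 (SD, n = 4 each), a 2.02-fold change with a 95% interval of 1.61-fold to 2.52-fold. The log2 difference was 1.01 ± 0.14 (SE, limma adjusted p = 0.00422) and the call held under all 18 alternative settings. Socs3 lies on chromosome 11 from 117966079 to 117970047, with no overlapping gene in the annotation. Groups did not overlap for 3 of the 8 members tested (Clcf1, Osmr and Socs3, all higher), while over all genes tested 11.7% were separate and higher.

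**Figure D2:**
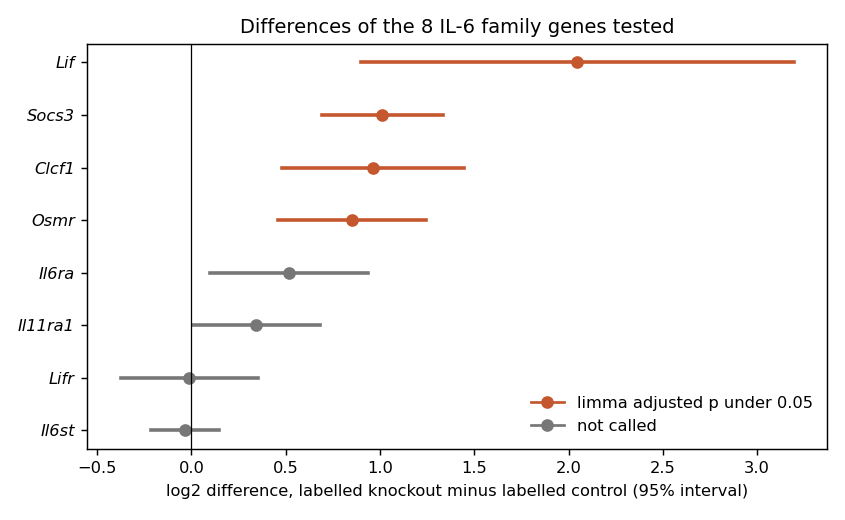
Log2 difference (horizontal axis, labelled knockout minus labelled control) of the 8 members tested, with points for the limma estimate and lines for its 95% interval from 4 libraries a group. The 4 called members lie from 0.85 to 2.05, and the intervals of Lifr and Il6st span 0.

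Levels of different genes were compared per kilobase of annotated exon. In the control libraries Il6st was highest at 270 ± 17.4 normalised reads per kilobase, followed by Il11ra1 at 213 ± 27.4. Lifr (95.6 ± 22.3) and Socs3 (84.3 ± 9.19) came next and overlapped each other. Osmr (18.8 ± 3.83), Clcf1 (16.5 ± 1.85) and Il6ra (15.4 ± 2.48) formed a lower group whose ranges overlapped. Lif (3.82 ± 3.37), Il11 (2.15 ± 1.80) and Il6 (0.758 ± 0.683) were lowest. In the libraries labelled knockout Socs3 stood at 171 ± 31.2 per kilobase, from 138 to 211, above Lifr at 93.3 ± 10.5, from 78.0 to 102. Il6st (264 ± 14.0) and Il11ra1 (273 ± 54.9) overlapped there. The receptor genes Il6st, Il11ra1 and Lifr were thus each read at a higher level per kilobase than any ligand gene in every library.

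**Figure D3:**
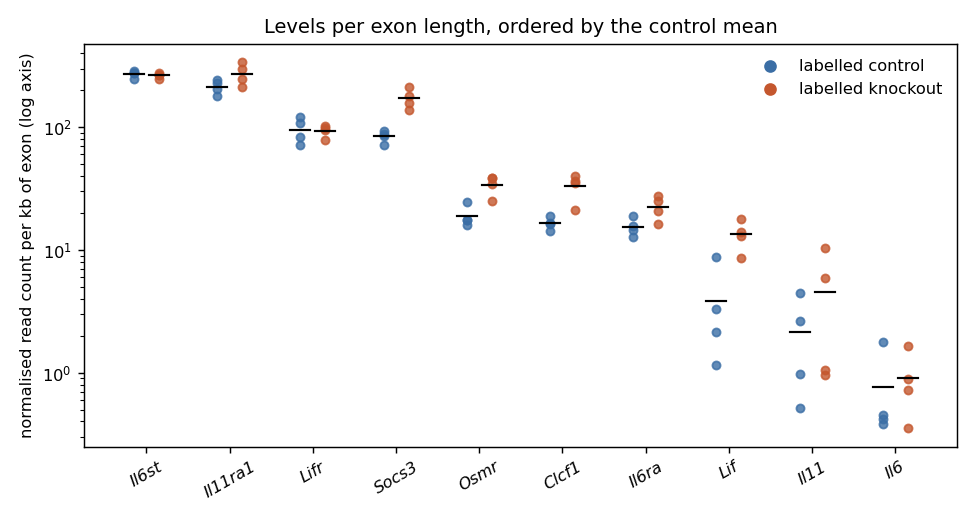
Normalised read count per kilobase of exon (log axis) for each gene and library, ordered by the control mean, with bars for the mean of 4 libraries. Il6st, Il11ra1, Lifr and Socs3 lie above the other genes, and Socs3 passes Lifr in the libraries labelled knockout.

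Ratios of receptor transcripts within a library do not depend on how libraries were scaled, so 5 were compared by exact two-sided permutation tests over 70 assignments of libraries to groups, for which the smallest possible p is 0.0286. The log2 ratio of Osmr to Il6st was -3.88, -3.84, -3.37 and -3.82 in the control libraries and -2.80, -2.68, -3.16 and -2.73 in those labelled knockout. Relative to the shared chain, Osmr was above the whole control range in 4 of 4 libraries labelled knockout. The difference was 0.88, a 1.85-fold shift of the ratio (exact permutation p = 0.0286, 0.0952 adjusted over the 5 ratios), so it did not pass 0.05 after adjustment. Without knockout replicate 2 it was 0.83 (exact permutation p = 0.0571). The ratio of Osmr to Lifr rose above all controls in 3 of 4 libraries labelled knockout, with a log2 difference of 0.86 (exact permutation p = 0.0571, adjusted 0.0952). For Il6ra to Il6st the difference was 0.55 (exact permutation p = 0.0571, adjusted 0.0952) and for Il11ra1 to Il6st 0.38 (exact permutation p = 0.114, adjusted 0.143). The ratio of Lifr to Il6st differed by 0.02 (exact permutation p = 0.971, adjusted 0.971).

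**Figure D4:**
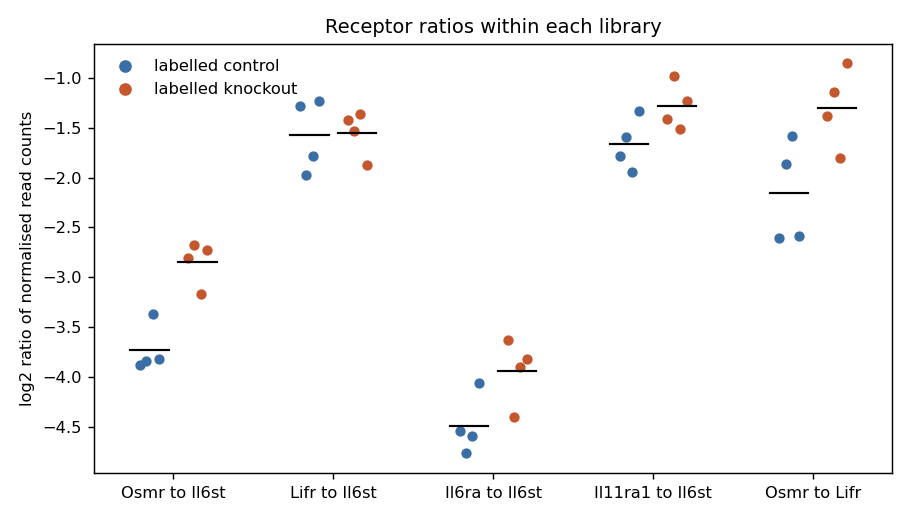
Log2 ratio of normalised read counts of receptor genes within each library, with bars for the mean of 4 libraries. The groups are separate only for Osmr to Il6st, where controls lie from -3.88 to -3.37 and libraries labelled knockout from -3.16 to -2.68.

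The other genes of the pathway were read from lists, whose counts stand against 11.6% of all genes tested called higher and 11.6% called lower. These lists too were chosen with earlier results of these data known. Of the other family ligands and receptors, 5 of 12 were tested and 0 were called by limma or edgeR. At an unadjusted limma p under 0.05, for which no share of all genes is given here, there were 2. These were Ctf1 and Il27ra, an interleukin-27 receptor gene named here after its values were seen, and DESeq2 called both. Ctf1, the cardiotrophin-1 gene, went from 201 ± 38.4 to 148 ± 8.32, with separate groups (log2 difference -0.42, limma adjusted p = 0.0624). Il27ra went the other way, with 6.06 to 18.4 normalised reads in the control libraries and 18.5 to 39.9 in those labelled knockout, so that the groups only just separated (log2 difference 1.13, limma adjusted p = 0.0615). Among 11 tested genes that carry the signal from gp130, 1 rose and 2 fell, too few to set the list apart from those shares. Stat3 rose from 1387 ± 107 to 1650.1 ± 34.4, a log2 difference of 0.25 (limma adjusted p = 0.0403), and that call was lost under 9 of 18 alternative settings, among them leaving out any library other than control replicate 1 (adjusted p over all settings from 0.0106 to 0.107). Stat5b, a STAT downstream of growth hormone, fell by 0.42 on the log2 scale (limma adjusted p = 0.0445). Its call was lost under 10 of 18 settings, among them leaving out control replicate 1 (0.0763), 2 (0.108) or 4 (0.0540) or knockout replicate 2 (0.106) or 4 (0.120), with a range of 0.0224 to 0.274. Ptpn11, which encodes the phosphatase SHP2 that binds gp130, fell by 0.45 (limma adjusted p = 0.0150), and the call was lost under the rescaling without abundant genes (0.0598) and quantile normalisation (0.0870). The kinase genes Jak1, Jak2 and Tyk2 were not called, with log2 differences of -0.21, 0.01 and 0.33.

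Of 12 feedback inhibitors beside Socs3, 3 rose and 1 fell, with a median log2 difference of 0.25. DESeq2, which called 14.3% of all genes as higher, called 5 higher and 1 lower, adding Socs2 and Ptpn6. Their log2 differences were 0.93 and 1.05 (limma adjusted p = 0.0576 and 0.0525). Socs1, a relative of Socs3 that blocks Janus kinases, rose from 36.0 ± 13.3 to 151 ± 25.6, a log2 difference of 2.09 ± 0.26 (SE, limma adjusted p = 0.00397). Ptpn1 and Pias3, a phosphatase gene and the gene of a STAT3 inhibitor, rose by 0.50 and 0.48 (limma adjusted p = 0.0224 and 0.0216). Their calls were each lost in some fits that left out 1 library, Ptpn1 when control replicate 2 (0.0571), control replicate 4 (0.0549), knockout replicate 1 (0.0575) or knockout replicate 4 (0.0581) was left out, and Pias3 when control replicate 2 (0.0567), knockout replicate 1 (0.0575) or knockout replicate 4 (0.0658) was. Socs7 fell by 0.58 on the log2 scale (limma adjusted p = 0.00456), from 1677 ± 130 to 1125 ± 79.8.

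Of 17 tested genes known as STAT3 or acute-phase targets, 7 rose and 1 fell, with a median log2 difference of 0.39. Bcl3, a nuclear regulator of NF-kB, rose from 54.7 ± 8.95 to 159 ± 18.5 (log2 difference 1.53, limma adjusted p = 0.00397). The AP-1 genes Junb and Fosl2 rose by 1.17 and 1.03 (limma adjusted p = 0.00397 and 0.00581). Timp1, the metalloproteinase inhibitor, rose from 474 ± 435 to 2002 ± 400.3 (log2 difference 2.52, limma adjusted p = 0.0121), and Il4ra, an interleukin-4 receptor chain, by 1.19 (limma adjusted p = 0.00605). The other 2 that rose were Icam1 (0.66) and Hif1a (0.82), named here after their values were seen. Bcl6, a transcriptional repressor, fell by 0.73 (limma adjusted p = 0.005855). The secreted acute-phase genes of the list were not called: Lbp differed by 1.003, Serpina3n by 0.39, Hp by -0.00 and Lcn2 by -0.79, with limma adjusted p from 0.0866 to 0.998. Saa3 was below the filter, with 6 and 19 reads over the 2 groups. Junb shares exon bases with Prdx2 on the opposite strand, Stat3 with Stat5a, Pias3 with Nudt17, and Bcl3, Bcl6, Il4ra, Icam1 and Hif1a with non-coding genes.

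**Figure D5:**
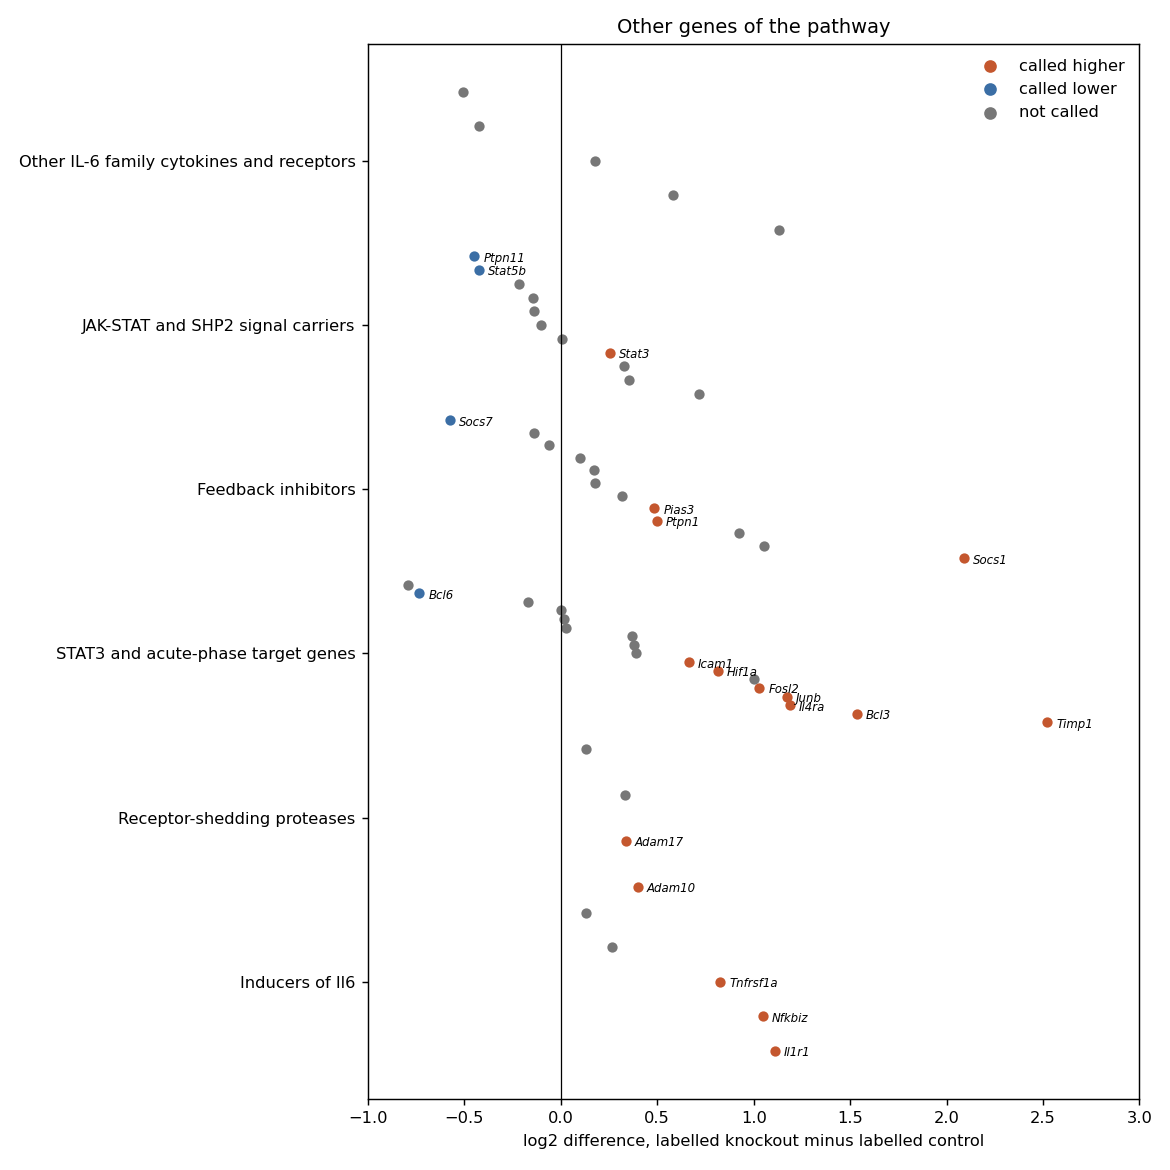
Log2 difference (horizontal axis) of each tested gene of 6 pathway lists, with called genes named. Called rises include Timp1 at 2.52, Socs1 at 2.09 and Bcl3 at 1.53, and called falls are Bcl6, Socs7, Ptpn11 and Stat5b.

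Markers of some cell types moved with the groups as well, while 11.6% of all genes tested were called higher and 11.6% lower. Of 10 fibroblast markers all were tested and 8 were called higher, with a median log2 difference of 1.49, and their summed normalised reads were 70021 to 194030 in the control libraries and 214810 to 368510 in those labelled knockout. Of 10 macrophage markers 8 were called higher (median 1.26, sums of 2895 to 6765 against 10019 to 14348). Of 12 skeletal muscle markers 6 were called lower (median -0.81), and their sum took 13.9% to 14.4% of a control library and 8.10% to 11.1% of a library labelled knockout. Osteoclast markers (5 of 6 called higher, median 2.73, sums of 1473 to 10068 against 8257 to 29595) and osteoblast markers (4 of 8, median 1.62, sums of 1122 to 7587 against 6305 to 12921) were higher too, with overlapping sums. Of 8 chondrocyte markers 1 was called higher (median 0.76, sums of 3714 to 11299 against 9231 to 13061). Fat cell markers had separate and lower sums (11945 to 15785 against 7043 to 11285), with 1 of 6 called lower (Lpl, named here after its values were seen) and a median of -0.20. As a share of a library the sums overlapped, at 0.0722% to 0.0938% in the controls and 0.0505% to 0.0741% in the libraries labelled knockout. Lpl had the largest means of that list, 10049 and 6247, and the groups of every other fat cell marker overlapped. All 8 erythroid markers had differences below 0 (median -1.93), limma adjusted p from 0.0758 to 0.116 and overlapping sums of 16790 to 99092 against 4046 to 42624. Of 5 mast cell markers 4 were tested, all above 0 (median 1.32), and 1 was called higher (Mcpt4, likewise named after its values were seen), with overlapping sums of 49.3 to 121 against 103 to 186. Every gene of the table had at least 10 reads in total, so no marker found in it could be at 0 in every library. The other lists had overlapping sums. Of their tested markers, 0 of 6 were called for endothelium (median -0.08), 0 of 9 for neutrophils (-0.63) and 0 of 5 for B cells (-0.65). For T cells 1 of 2 was called lower (-0.30), and for keratinocytes 0 of 1 was called (0.12). The keratinocyte markers Krt1, Krt5 and Krt14 were not in the table. Of the libraries labelled knockout, replicate 3 had the lowest fibroblast and macrophage sums and also the lowest Clcf1, Osmr, Socs3, Il11ra1 and Il6st. That library also had the lowest chondrocyte, B cell and T cell sums and the highest erythroid, endothelium, neutrophil and fat cell sums. The lowest Lif, Il6ra and Il6 were in knockout replicate 2, the lowest Lifr in replicate 4 and the lowest Il11 in replicate 1. Of the controls, replicate 3 had the highest fibroblast and macrophage sums and the highest Osmr and Socs3, but the lowest Clcf1 and Il11ra1. The part of these markers in the differences of the members was not tested.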

How the data were processed

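Per the labels, reads were aligned to mm10 and counted with featureCounts, and the authors used DESeq2 for normalisation and filtering; the submitters' processing notes name HISAT2. Versions, annotation and strand setting are not given in the sources used here. The deposited values are a normalised signal, the read count of a gene divided by a size factor. In each of 8 columns 100% of values up to 1000 reads were whole multiples of the smallest, within 0.01 of a read, so reads were recovered; 0 value columns were left unmapped. Within groups, the 12 library pairs differed by more than counting error (chi-square per degree of freedom 23.5 to 59.7).

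Tests covered genes whose value reached 10 in 4 or more libraries, on log2(value + 1), the pseudocount being 1, with limma 3.58.1 (eBayes, trend) and Benjamini-Hochberg adjustment over all 14949 genes. Fold changes are on that scale, which understates low genes. Alternatives were other pseudocounts, filters and scalings, edgeR 4.0.16 and DESeq2 1.42.0 on recovered reads, a replicate block and leaving out each library. On simulated counts, limma, edgeR and DESeq2 were required only to give the right sign for nearly all changed genes. Far fewer genes were changed there than were called here, and the permutation tests were not checked. The labels give no batch and do not say that libraries are separate animals. The p-values set group differences against the spread among these libraries, and whether they extend to animals is not known.

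Coordinates, overlaps and union exon lengths came from GENCODE M21, which matched 99.2% of names. The members and lists were chosen with earlier results of these data known. Named genes are the members, Loxl2, Osm and, per pathway list, up to 6 called genes of smallest p; other pathway genes in the text were named with their values known.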

Additional observations from a re-analysis of the deposited data

Results flagged for a closer look

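In 34 groups of 4 libraries, 4 groups had a library far from the other 3. The groups covered the 10 members, Loxl2, Osm and the 5 receptor ratios. Chance gives about 1 in 20 for normally distributed values. Some values here are small read counts, as for Il6 and Osm, so the 4 groups cannot be read against that rate. Il6 was at 4.33 normalised reads in control replicate 1, which is 4 reads, against 1 read in each other control. Loxl2 was at 1135 in control replicate 3, above the 282 to 349 of the other controls. Osm was at 9.86 in control replicate 4, above 2.16 to 3.03 in the others. The log2 ratio of Osmr to Il6st was -3.37 in control replicate 3, against -3.88 to -3.82 in the others, and without that library the difference between the groups was 1.004 (exact permutation p = 0.0286).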

How the results depend on the processing

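The number of members called was 4 under most settings, 3 with a filter at 50 (which left Lif untested) and without knockout replicate 1 or 4, 5 with DESeq2 and without knockout replicate 2 or 3, and 6 after rescaling without abundant genes. Clcf1, Osmr and Socs3 were called under all 18 alternatives, Osmr with adjusted p up to 0.0438 under the replicate block. Genes called over the whole table, 3461, fell to 2018 with the replicate block and ran from 1751 (without knockout replicate 4) to 3841 when 1 library was left out, with 1887 without control replicate 2 and 2194 without control replicate 4. Same-numbered libraries did not deviate together (correlations 0.21, -0.12, -0.23 and -0.06), so the numbers were not taken as pairs. With the block, the Osmr to Il6st difference of 0.88 had an exact sign-flip p of 0.125, the smallest 4 pairs allow. Leaving out 1 library moved it between 0.83 and 1.004, and that of Lifr to Il6st between -0.11 and 0.13. The difference of Lifr changed sign after rescaling without abundant genes (0.14) and quantile normalisation (0.0797) and ranged from -0.14 to 0.11 when 1 library was left out; that of Il6st was 0.12, 0.19 and -0.0801 to 0.0019. The rescaling without abundant genes divides each library by a single factor for all genes, and the median log2 difference of all genes moved from 0.00 to 0.15. The cause of the changes under the other settings was not tested. Il6, Il11 and Osm had few reads and were below the filter. With no filter none was called (limma adjusted p = 0.830, 0.599 and 0.164). The part of depth in this was not tested.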

Other observations

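Genes that are known to induce Il6 were read as a further list. Of 10 such genes 5 were tested, and 3 rose, while 11.6% of all genes tested were called higher. DESeq2, which called 14.3% of all genes as higher, called 4, adding Rela (log2 difference 0.27, limma adjusted p = 0.0670). Il1r1, the interleukin-1 receptor, rose from 144 ± 39.0 to 311 ± 70.7 (log2 difference 1.11, limma adjusted p = 0.00915). Nfkbiz, a nuclear cofactor of NF-kB that is needed for Il6 induction, rose by 1.05 (limma adjusted p = 0.0239) and Tnfrsf1a, a tumour necrosis factor receptor, by 0.83 (0.0224), but these calls were lost under 6 and 5 of 18 alternatives. For Nfkbiz these were quantile normalisation (0.0550), the replicate block (0.0511) and leaving out control replicate 2 (0.0664) or knockout replicate 1 (0.0619), 2 (0.0555) or 4 (0.0736). For Tnfrsf1a they were the replicate block (0.0535) and leaving out control replicate 2 (0.0648) or 4 (0.0559) or knockout replicate 2 (0.0600) or 4 (0.0675). The cytokine genes Tnf, Il1a and Il1b were below the filter, with 18, 7 and 27 reads over the control libraries and 56, 12 and 47 over those labelled knockout.

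Of 4 genes of receptor shedding, by which soluble interleukin-6 receptor is released, 2 rose, against 11.6% of all genes tested called higher. Adam10 rose from 485 ± 39.2 to 639 ± 38.7 (log2 difference 0.40, limma adjusted p = 0.0149), and Adam17 from 456 ± 20.3 to 580 ± 78.0 (0.34, limma adjusted p = 0.0471, lost under 11 of 18 alternatives, among them leaving out any library other than knockout replicate 1, with 0.0120 to 0.110 over them). Adam17 shares exon bases with Iah1 on the opposite strand.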
